A study of Caenorhabditis elegans with 79 samples.

Results

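The ERGO class 26G-RNAs of Caenorhabditis elegans were followed through 7 deposited small RNA tables. Their members are the rows that the authors classified as ERGO 26G in the GFP::ERGO-1 table and as ERGO Class 26G in the other tables, 1 row for each gene that makes them, matched between tables by gene identifier. All 123 genes occurred in each of the 7 tables. They made up every row of the GFP::ERGO-1 table and 123 of 25897 to 25903 rows of the other 6.

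26G-RNAs are small interfering RNAs of about this length that begin with G and are made on mRNA templates by the RNA-dependent RNA polymerase RRF-3 and the nuclease Dicer (DCR-1), with the double-stranded RNA binding protein RDE-4 as a partner of Dicer. Argonautes are the proteins that bind small RNAs and use them to find targets. The ERGO class is bound by the Argonaute ERGO-1, is abundant in oocytes and embryos, and directs the making of secondary 22G-RNAs against its target genes. The ALG class, bound by ALG-3 and ALG-4, belongs to the sperm-forming germline. RDE-1 is the Argonaute that binds primary siRNAs cut from double-stranded RNA, and ALG-1 is a microRNA Argonaute.

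Whole animals were grown at 20 °C. The reference strain was N2, and the mutants were rde-4(syb6665) and rde-1(ne300). L4 larvae of N2 and of rde-4(syb6665), harvested at 54 h, were untreated, and adults of all 3 strains, harvested at 72 h, were under RNAi against nrfl-1 and oma-1 (3 libraries per group). ERGO-1 was immunoprecipitated from untreated gravid adults carrying ergo-1(tor147[GFP::3xFLAG::ergo-1a]), with or without rde-4(syb6665). That table had 2 libraries per group for co-immunoprecipitates (co-IPs) and 2 for the lysates they were taken from (inputs), although the labels name 3. GFP::RDE-1 came from adults carrying rde-1(cmp133[(GFP::3xFLAG)::rde-1]), with or without rde-4(syb6665), under nrfl-1 RNAi (3 libraries per group) or under nrfl-1 and oma-1 RNAi (2 per group). In a further set, every animal carried rde-4(cmp320[rde-4::2xFLAG]) beside the tagged rde-1 and was fed L4440, the empty RNAi vector, or dcr-1 RNAi (3 per group). HA::ALG-1 came from adults carrying unc-119(ed3) and the array ram4, which holds the HA-tagged alg-1 and a Cbr-unc-119(+) rescue gene, again with or without rde-4(syb6665), under nrfl-1 RNAi (3 per group). The title of the mutant ALG-1 co-IPs names nrfl-1 without the word RNAi, although the treatment field gives nrfl-1 RNAi. Nothing in the labels says that replicates came from separate cultures, so p-values measure the spread between these libraries, which may be technical.

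The 26G-RNA rows give a gene and a level, with no letters. The tables do print the letters of the authors' 23H-RNAs, siRNAs of the primary kind of 21 to 24 nt that are loaded by RDE-1. Of 1194 23H-RNA rows, 155 were listed under 34 of the 123 genes, 22 of them under more than 1. The most abundant single siRNA of each of 4 leading genes is printed first. These genes head the 26G-RNA levels described further on or, for F55C9.3, stand near the top of the 23H-RNA levels. Bases 2 to 8, the seed, are in capitals. Then come both strands of 3 pairs, which show how siRNAs of 1 gene fit together, with paired bases in capitals. All are written 5′ to 3′ as deposited, and the genes lie on chromosomes II, III and V.
F55C9.3 siRNA: tACAACGTggagctaagacaccc
Y17D7C.3 siRNA: aATCGGAAactcaaagaccaca
F39E9.7 siRNA: aGAGGTCCaagtaagatgatagc
T05E12.10 siRNA: aATCGGGAtggatcgatggatt
C36A4.14 strand a: CCATCAGCACCAACACCTCACCc
C36A4.14 strand b: GGTGAGGTGTTGGTGCTGATGGca
Y116F11A.1 strand a: TCTTAGAACCCATATATACCCCc
Y116F11A.1 strand b: GGGGTATATATGGGTTCTAAGAtc
E01G4.7 strand a: CACGATCAGAAGGGATGTCAct
E01G4.7 strand b: TGACATCCCTTCTGATCGTGga

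The strands of C36A4.14 and of Y116F11A.1 paired over 22 bases with 3′ overhangs of 1 and 2 bases, and those of E01G4.7 paired over 20 bases with a 2-base 3′ overhang at each end. Over all members, 45 pairs of 23H-RNAs with the same gene listing paired over at least 17 bases. Some of these pairs were listed under several members at once, and some were length variants of each other. Of the 45, 16 pairs had 2-base 3′ overhangs at both ends, the form that Dicer leaves. They came from 9 gene listings, each naming 1 member or several that share the sequences.

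Levels are in RPM, the deposited read count scaled to library size, and changes are log2 changes of RPM + 1 from limma, called at a Benjamini-Hochberg adjusted p under 0.05 over all rows of a table with a mean of at least 10 RPM. The fit shares part of the spread among the tested rows, so SEs and p-values do not rest on a member's own libraries alone. In the GFP::ERGO-1 table, with 2 libraries per group, all those rows are members. Members there lend each other their spread without being independent replicates, so its small p-values describe these libraries. Outside the GFP::ERGO-1 table, counts of members whose libraries did not overlap come without the share over all rows. Such counts describe the members only. Depth, read from the steps between low values, was 12.3 to 37.3 M reads in 58 of the 59 libraries outside the GFP::ERGO-1 table, so 3 reads correspond to 0.081 to 0.243 RPM. It is unknown for the GFP::ERGO-1 libraries, whose table holds no other class, and these limits cover counting error only. The libraries matched their stage labels: the ALG class 26G-RNAs summed to 8667 to 9224 RPM in N2 larvae and 41.41 to 50.15 in N2 adults, while the embryonic mir-35 family summed to 1283 to 1421 and 28700 to 30910 RPM. The first wild-type co-IP under nrfl-1 and oma-1 RNAi stood apart, with a member sum of 27.53 RPM against 327.7 in the second. No row measured rde-4 itself, and small RNA libraries do not measure its mRNA, so the mutant label was not checked that way.

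The inputs of the GFP::ERGO-1 table ranked the members less like N2 adults (rho = 0.60 over 123 members) than its co-IPs did (rho = 0.90). Of 41 members with at least 10 RPM in its wild-type inputs, 12 were under 1 RPM in N2 adults, and 57 of the 123 were under 1 RPM in every library of the other 6 tables. Its libraries are not labelled as treated with RppH, a pyrophosphohydrolase that makes 5′ triphosphate RNAs clonable, whereas those of adults, of larvae and of the GFP::RDE-1 set with both RNAi targets are. The part of library preparation or counting in that gap was not tested, and levels were tested only within a table.

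ERGO class 26G-RNAs were enriched in the wild-type ERGO-1 co-IPs. Their sum over 123 genes was 109100 and 47350 RPM in the 2 co-IPs and 2235 and 2467 RPM in the 2 inputs, a ratio of means of 33.3. Few genes supplied most of it: T05E12.10 alone gave 24.2% of the co-IP sum, the first 5 genes 53.6% and the first 20 genes 86.6%.

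T05E12.10, a noncoding RNA gene at V:17072946-17073958 (WBcel235, plus strand), headed the class. Its 26G-RNAs were at 27823.48 and 9951.4 RPM in the wild-type co-IPs and at 335.42 and 331.02 in the inputs. Both co-IPs lay far above both inputs, a log2 change of 5.64 ± 0.63 (SE, n = 2 per group, limma adjusted p = 1.17e-16). Y17D7C.3, an annotated pseudogene at V:18720589-18723771 on the minus strand, followed at 13678.18 and 6128.89 RPM against 225.89 and 305.48, again with no overlap (5.12 ± 0.63, adjusted p = 2.01e-14). F39E9.7, a pseudogene at II:3306144-3307505 on the minus strand, stood at 6761.87 and 2916.99 against 119.84 and 149.18 RPM (5.04 ± 0.62, adjusted p = 2.7e-14).

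The other leading genes were the pseudogenes E01G4.7, C36A4.14, ZK380.5 and ZK402.3, the protein-coding F52D2.6, K02E2.6 and Y116A8B.1, the long intergenic RNA F39E9.10, and T16A1.9, which did not match the annotation. For all 12 leading genes, both co-IPs exceeded both inputs. The highest enrichment was that of ZK380.5, at 2725.46 and 1275.2 RPM in the co-IPs and 25.11 and 28.64 in the inputs (6.07 ± 0.60, adjusted p = 1.9e-19). In the first co-IP each of the 12 was above its value in the second, so the co-IPs differed from each other in level while keeping the gap to the inputs.

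**Figure D1:**
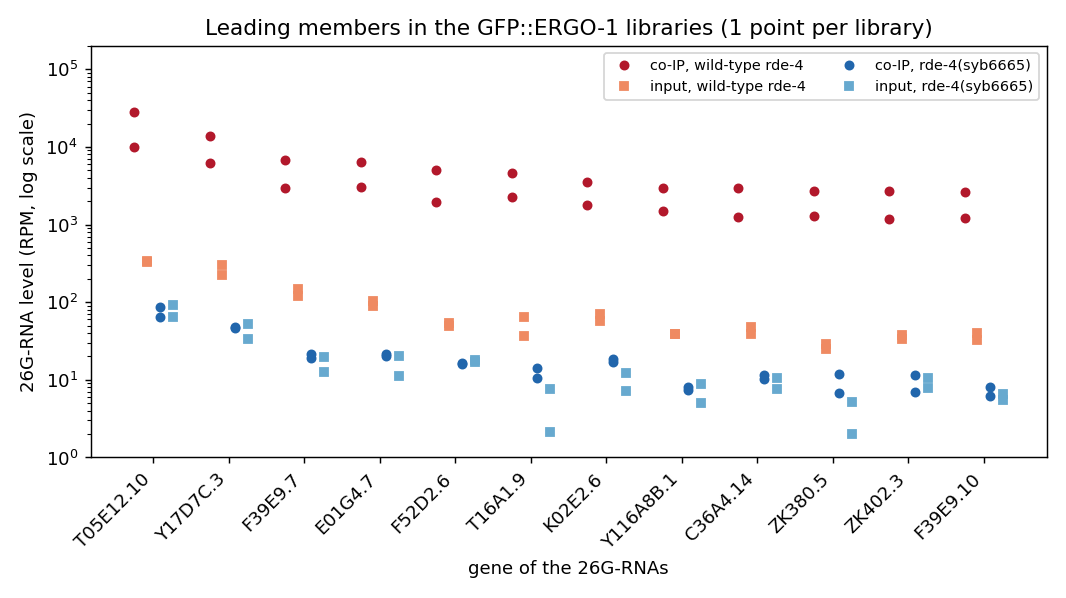
Levels in RPM, on a log axis, of the 12 members with the highest mean in the GFP::ERGO-1 libraries, 1 point per library. The 2 wild-type co-IPs stand above all other libraries for each of the 12, led by T05E12.10 at 27823.48 and 9951.4 RPM, while co-IPs and inputs of rde-4(syb6665) lie together below the wild-type inputs.

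Of the 123 members, 67 reached the 10 RPM mean and were tested, 37 of them only through the wild-type co-IPs themselves. In the wild type, 58 were called higher in the co-IP (86.6%, which is also the table's background because the table holds no other class), 5 lower (7.46%) and 4 neither way. The 58 ranged from 1.60 (K08A2.1, lido-8) to 6.07 (ZK380.5) with a median of 5.08. Of 37 members that averaged 10 RPM or more over the 4 inputs alone, a choice that leaves the co-IPs out, 34 were tested, 25 called higher and 5 lower. Without a filter, 78 of the 123 were higher in both co-IPs than in both inputs and 26 lower in both.

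Sorted by call, the members also differed in level in N2 adults. The 10 RPM mean itself sorts members by level, so low levels elsewhere in the group under it are a description. They do not set that group apart as a kind. The 58 called higher had a median of 10.7 RPM in the wild-type inputs, 399 in the co-IPs and 3.14 in N2 adults. The 56 members under the 10 RPM mean had medians of 1.71 RPM in the inputs and 1.79 in the co-IPs, and none of them had a mean above 0.2 RPM in N2 adults. Over all 123 members, log levels in the wild-type ERGO-1 co-IP correlated with those in N2 adults at r = 0.87 (Spearman's rho = 0.90) and with their own inputs at r = 0.74 (rho = 0.75). These are descriptions across genes that share libraries and depth, and genes are not independent replicates. Among the 58 alone, r between co-IP and N2 adults was 0.92.

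The 5 called lower were all protein-coding genes. Y55F3BR.2 was at 42.84 and 29.86 RPM in the wild-type co-IPs and 227.49 and 213.7 in the inputs (fell by 2.59 on the log2 scale, SE 0.62, limma adjusted p = 4.75e-05). The sodium-calcium exchanger gene ncx-7 was at 11.42 and 11.59 against 51.1 and 46.77 RPM (-2.0 ± 0.59, adjusted p = 0.000953). Both genes had no co-IP value as high as an input value. The cathepsin gene cpz-1 changed by -2.82, the dynein heavy chain gene dhc-4 by -1.75 and the ankyrin gene unc-44 by -1.60. The calls of dhc-4 and unc-44 were lost when the second co-IP was left out (adjusted p = 0.099 and 0.0611) or the first input (0.0705 and 0.0534), and that of unc-44 also without the second input (0.058). In N2 adults these 5 lay between 0 and 0.0533 RPM, whereas 44 of the 58 called higher reached 1 RPM there. The 4 called neither way were ZK262.8, ppat-1, pcmd-1 and eri-6, a gene of the ERGO-1 pathway itself. At 46.67 and 30.26 RPM in the co-IPs and 42.11 and 49.92 in the inputs, the eri-6 groups overlapped.

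Without rde-4, the class was not enriched with ERGO-1. The summed level was 509.7 and 913.2 RPM in the mutant co-IPs and 986.1 and 1096 RPM in the mutant inputs, so the inputs were 1.46 times the co-IPs. Single members went both ways: of 86 with at least 1 RPM in the mutant inputs, 15 were higher in both co-IPs, 43 lower in both and 28 overlapped, while the median change of the 67 tested members was 0.18. K02E2.6 was among the 15, at 16.89 and 18.79 RPM against 7.23 and 12.2 (0.85 ± 0.62, limma adjusted p = 0.467). T05E12.10 stood at 64.79 and 86.91 RPM in the mutant co-IPs and 64.4 and 93.38 in the inputs, overlapping groups with a log2 change of -0.05 ± 0.63 (n = 2 per group, limma adjusted p = 0.955). Y17D7C.3 was at 48.56 and 45.98 against 33.09 and 51.99 RPM, again overlapping.

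**Figure D2:**
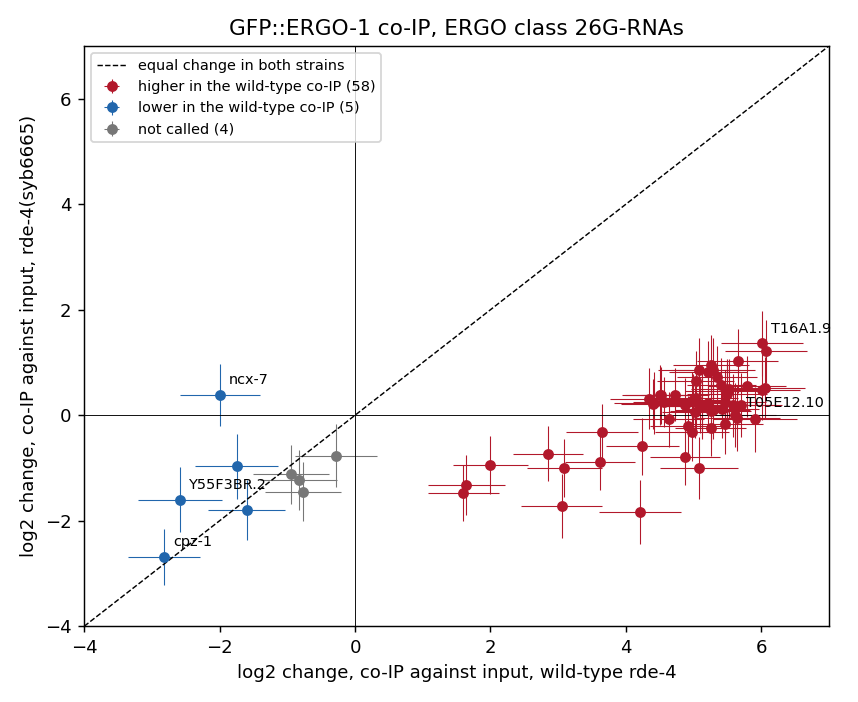
Log2 change from input to GFP::ERGO-1 co-IP for the 67 tested members, in the wild type (horizontal) and in rde-4(syb6665) (vertical), with SE bars (2 libraries per group). The 58 members called higher in the wild type lie between 1.60 and 6.07 on the horizontal axis, all below the dashed line of equal change, and ncx-7 lies above it.

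None of the 67 members was called higher in the mutant co-IP and 1 was called lower (1.49% of the table), the rest lying between -1.83 and 1.36 (T16A1.9, adjusted p = 0.197). At an unadjusted p under 0.05 limma gave 2 higher and 10 lower. The 1 called was cpz-1, at 0.77 and 9.47 RPM in the mutant co-IPs and 26.82 and 26.44 in the inputs (-2.68 ± 0.53, adjusted p = 4.98e-05). That call rested on single libraries: it was lost without the first mutant co-IP (adjusted p = 0.96), no member was called without the first mutant input, and 10 were called lower without the second mutant co-IP.

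The test of the difference in enrichment between strains called 58 of the 67 members lower in the mutant (86.6%) and 1 higher (1.49%), and the 58 ranged from -6.08 (ZK402.5) to -2.96. For T05E12.10 the difference was -5.68 ± 0.89 (limma adjusted p = 2.09e-09). The exception was ncx-7, at 16.86 and 64.33 RPM in the mutant co-IPs and 28.11 and 22.81 in the inputs, groups that overlapped, with a difference of 2.37 ± 0.84 (adjusted p = 0.00555). Without the second mutant co-IP its difference was 1.44 (adjusted p = 0.107). Between the co-IPs themselves, 58 members were lower in the mutant (86.6%), down to -7.94 for the F-box gene fbxc-37, and the summed level was 110 times as high in the wild type. As the filter kept 37 of the 67 through the wild-type co-IPs, these counts were partly fixed by it: among the 34 tested members that averaged 10 RPM or more over the inputs, 25 were lower and 1 higher, both for the difference and between co-IPs. Of all 123 members, 88 were lower in both mutant co-IPs than in both wild-type ones and 2 higher. In that comparison ncx-7 was higher in the mutant by 1.45 (1.49% called higher, adjusted p = 0.0168), a call lost without the first wild-type co-IP (0.0683), the second (0.0804) or the second mutant co-IP (0.461).

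The germline RNA helicase gene cgh-1 combined both patterns. Its 26G-RNAs were at 231.27 and 125.16 RPM in the wild-type co-IPs and 17.54 and 21.93 in the inputs, well apart (3.05 ± 0.60, limma adjusted p = 7.22e-07). In the mutant they were at 4.78 and 17.29 in the co-IPs and 34.63 and 31.16 in the inputs, with the inputs above both co-IPs (-1.72, adjusted p = 0.0723). Its mutant inputs also stood above its wild-type inputs (0.72, adjusted p = 0.283), so its enrichment was lower in the mutant (difference of -4.77 ± 0.84, adjusted p = 7.18e-08) with no called fall in the input. In the other 6 tables its 26G-RNAs reached at most 0.25 RPM in any library, with a mean of 0.0167 RPM in N2 adults. The gene was named after its values were seen.

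In the GFP::ERGO-1 inputs, 46 of the 67 members were lower in rde-4(syb6665) (68.7%), from -3.27 (T16A1.9) to -1.08, and none was called higher. T16A1.9 fell by 3.27 on the log2 scale (SE 0.61, limma adjusted p = 6.04e-06), and T05E12.10 by 2.09 (SE 0.63, adjusted p = 0.00215). The count was 25 without the second wild-type input and 19 without the first mutant input, and T05E12.10 then had adjusted p-values of 0.0537 and 0.0669. At an unadjusted p under 0.05, limma gave 0 members higher. The mutant inputs were led by Y55F3BR.2, at 215.23 and 226.0 RPM against 227.49 and 213.7 in the wild type, which gave 21.2% of their member sum and overlapped between the strains (0.00, adjusted p = 0.999). The member sum was 2.26 times as high in the wild-type inputs.

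In the other tables the fall without rde-4 was steeper. Over the 44 members of at least 1 RPM in N2 adults, the mutant kept a median of 3.21%. It kept 1.27% over 29 members in larvae, 4.17% over 43 members in the inputs of nrfl-1 RNAi, 2.26% over 32 in those of nrfl-1 and oma-1 RNAi and 6.32% over 45 in the HA::ALG-1 inputs. Over 105 members of the GFP::ERGO-1 inputs, it kept 35%. These medians are not over the same members. In the GFP::ERGO-1 inputs, the 58 members called higher had median levels of 10.7 RPM in the wild type and 2.54 in the mutant. The difference between tables was not tested.

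In adults, summed 26G-RNAs were 568.6, 590.4 and 575.4 RPM in N2 and 29.74, 26.89 and 30.78 in rde-4(syb6665), a 19.8-fold gap in means. Each of the 44 members was lower in every mutant library than in every N2 library. Y17D7C.3 led in adults at 117.23, 114.02 and 103.13 RPM in N2 and 3.64, 3.16 and 4.62 in the mutant (-4.56 ± 0.11, limma adjusted p = 1.23e-10). T05E12.10 was at 84.6, 92.39 and 87.11 RPM and kept 8.84, 9.89 and 10.64 (-3.05 ± 0.08, adjusted p = 2.27e-10). T16A1.9 was at 34.21, 33.39 and 30.06 RPM and kept 0.56, 0.06 and 0.23, the last 2 near the level of a few reads (-4.72 ± 0.14, adjusted p = 5.02e-10). None of these groups overlapped, and T05E12.10 kept more in the mutant than Y17D7C.3 did, although it was the lower of the 2 in N2. F52D2.6 kept the highest share of the 44 members, 16.5%.

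All 7 members that reached the 10 RPM mean in adults were called lower, against 6.17% of 5450 rows called lower. They reached that mean through the N2 and rde-1 libraries, so the count describes them and no more. F39E9.7 changed by -4.35 ± 0.08, C36A4.14 by -3.99 ± 0.16, K02E2.6 by -3.74 ± 0.10 and E01G4.7 by -3.58 ± 0.09, with limma adjusted p-values of 2.15e-11, 8.25e-09, 3.65e-10 and 1.96e-10. The median of all rows was 0.113. The embryonic mir-35 family moved the same way by less: its sum was 13840 to 14440 RPM in the mutant against 28700 to 30910 in N2, with 8 of 8 members called lower (median -0.74). In whole animals, fewer cells that make a small RNA and less of it per cell cannot be told apart, and the part of embryo content was not tested.

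Loss of rde-1 left the class nearly at its N2 level. Sums were 471.2, 517.2 and 520.2 RPM in rde-1(ne300), and the N2 mean was 1.15 times as high. Only Y17D7C.3 was called among the 7, at 72.37, 72.95 and 84.66 RPM, below all N2 libraries (-0.54 ± 0.11, limma adjusted p = 0.00509, against 7.96% of rows called lower). The other 6 changed by -0.23 (F39E9.7, adjusted p = 0.0991) to -0.03, and limma gave 2 of the 7 at an unadjusted p under 0.05. Among the 44 members, 13 were lower in every rde-1 library, 2 higher in every one and 29 overlapped, with a median of 91.0% of N2. The mir-35 sum was 26060 to 26960 RPM in the rde-1 libraries. The ALG class 26G-RNAs summed to 75.22 to 92.43 RPM there, above the 41.41 to 50.15 RPM of N2 adults.

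In L4 larvae the sums were 245.9, 220.8 and 244.6 RPM in N2 and 7.14, 6.24 and 4.67 in rde-4(syb6665), a 39.4-fold gap. Y17D7C.3 was at 54.56, 43.66 and 57.91 RPM against 0.46, 0.32 and 0.32 (-5.27 ± 0.12, limma adjusted p = 3.05e-12). K02E2.6 was at 20.85, 21.65 and 20.65 RPM against 0.26, 0.18 and 0.05 (-4.25 ± 0.11, adjusted p = 8.86e-12). The groups were far apart for both, the only members tested, against 6.74% of 4482 rows called lower. Their mean of 10 RPM was reached through the N2 libraries: 1 member passed and was called lower without any 1 N2 library, and 3 without any 1 mutant library. Of 29 members of at least 1 RPM in N2 larvae, 28 were lower in every mutant library. The exception, eri-6, kept 91.4% of its N2 mean. The mir-35 sum was 960.8 to 1099 RPM in the mutant larvae and 1283 to 1421 in N2, and the ALG class fell with the ERGO class, to 384.7 to 526.4 RPM.

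**Figure D3:**
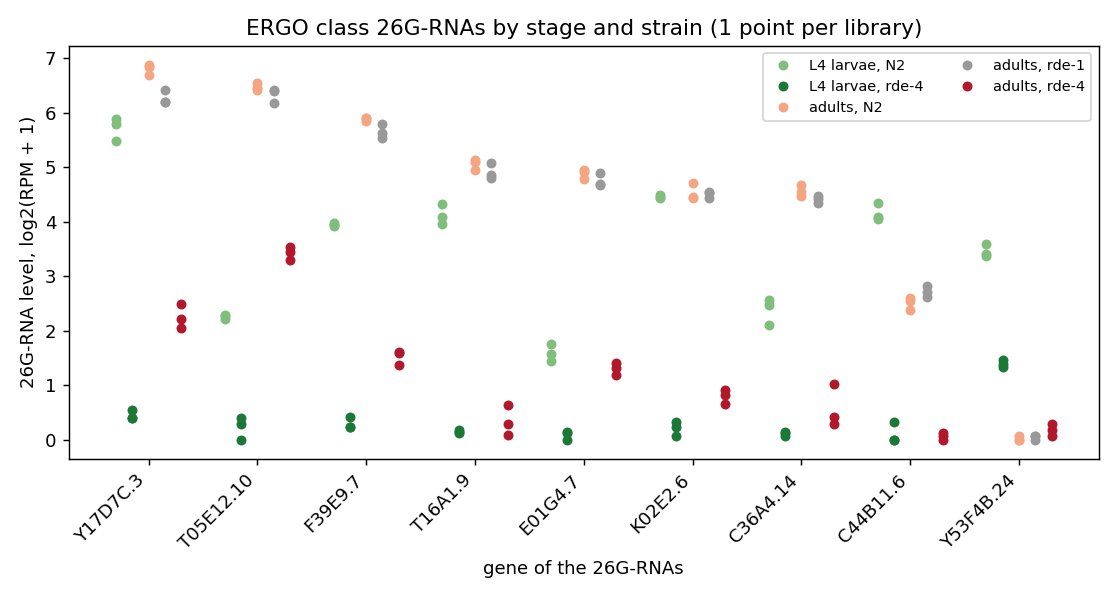
Levels, as log2(RPM + 1), of 9 members in N2, rde-1(ne300) and rde-4(syb6665), 1 point per library (3 per group), in L4 larvae and in adults under RNAi. The rde-4 points lie lowest in both stages for the first 8 genes, the rde-1 points lie close to N2 adults, and Y53F4B.24 is near 0 in all adults.

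Larvae and adults held different amounts of single 26G-RNAs in N2. The 2 tables were normalised separately, and the larvae were untreated while the adults were under RNAi, so stage and treatment cannot be told apart and no test was made. The sum was 2.44 times as high in adults. Of 49 members of at least 1 RPM at either stage, 34 were higher in every adult library, 10 higher in every larval library and 5 overlapped. The share over all rows is not given, so a member trait and a shift of the whole table cannot be told apart.

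T05E12.10 was low in larvae, at 3.79 ± 0.14 RPM (SD, n = 3), and 88.03 ± 3.98 in adults. F52D2.6 went from 0.493 to 11.62 RPM and E01G4.7 from 2.03 to 28.48, so each was over 10 times as high in adults. K02E2.6 stood at 21.05 ± 0.53 in larvae and 22.36 ± 2.62 in adults, ranges that overlapped. The larval set was led by C44B11.6 (17.03 ± 2.07 RPM in larvae, 4.72 ± 0.43 in adults) and Y53F4B.24 (10.04 ± 0.98 and 0.0167 ± 0.0289). Y57G11C.5 and rps-29, a ribosomal protein gene, had 3.73 and 4.37 RPM in larvae and were listed at 0 in all 3 N2 adult libraries. These larval genes were named after their values were seen.

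With GFP::RDE-1 under nrfl-1 RNAi, the class came down at about its input level. Sums were 529.0, 748.9 and 844.8 RPM in the wild-type co-IPs and 705.5, 946.9 and 828.8 in the inputs. Over 43 members of at least 1 RPM in the inputs, the median ratio of co-IP to input was 1.01, with 6 higher in every co-IP, 10 lower and 27 overlapping. The median of all 483 tested rows was -1.59, so the members stood above most rows of their table.

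T16A1.9 was the exception among the 9 tested members. It was at 71.04, 101.22 and 94.4 RPM in the co-IPs and 18.31, 32.5 and 27.92 in the inputs. All co-IPs lay above all inputs (1.74 ± 0.31, limma adjusted p = 0.00019, against 21.3% of rows called higher). F55C9.3 went the other way, at 13.84, 15.19 and 25.34 against 37.19, 49.03 and 44.57 RPM (-1.26 ± 0.29, adjusted p = 0.00152, against 59.8% called lower). Y17D7C.3 was also called lower, at 94.83, 130.43 and 154.12 against 232.84, 239.25 and 213.97 RPM (-0.88 ± 0.31, adjusted p = 0.0201). That call was lost without the first co-IP (0.0913), the second input (0.0567) or the filter (0.0958), and the other 6 members lay between -0.43 and 0.40. T05E12.10, for one, was at 58.86, 97.43 and 130.16 RPM in the co-IPs and 50.4, 91.33 and 86.29 in the inputs, ranges that overlapped.

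In rde-4(syb6665) the co-IPs held 17.1, 22.08 and 16.49 RPM of the class and the inputs 68.6, 72.52 and 67.91, so the inputs were 3.75 times as high. Y17D7C.3 was at 2.27, 5.38 and 3.02 against 18.82, 25.51 and 18.34 RPM (-2.31 ± 0.31, limma adjusted p = 2.17e-05). Of the 9 members, 6 were called lower, against 62.1% of all rows, a share near the background. Between the inputs, all 9 were lower in the mutant, against 3.93% of rows (members passed the filter through the wild-type libraries, so the count is a description), from -4.39 (Y116F11A.1) to -2.08 (T05E12.10). T16A1.9 fell there by 4.07 on the log2 scale (SE 0.31, adjusted p = 1.5e-06), from between 18.31 and 32.5 RPM to between 0.34 and 0.85.

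The difference in RDE-1 enrichment between strains was called lower in the mutant for 4 of the 9, against 14.9% of rows. It was -2.10 ± 0.56 for T05E12.10, -1.96 ± 0.44 for T16A1.9, -1.51 ± 0.42 for K02E2.6 and -1.43 ± 0.44 for Y17D7C.3, with limma adjusted p-values of 0.0188, 0.00499, 0.023 and 0.0435. Without a filter on low rows only T16A1.9 kept its call (T05E12.10 0.105, K02E2.6 0.0746, Y17D7C.3 0.224), and likewise with equal totals (0.0552, 0.0575 and 0.132). The count fell to 1 without the second wild-type co-IP or the first wild-type input. It fell to 2 without the third wild-type co-IP, the third wild-type input, the first mutant co-IP, or the second or the third mutant input. Mutant values of 0.09 to 0.85 RPM for T16A1.9 leave little room to show a fall.

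The 23H-RNAs of the same genes were concentrated in the wild-type RDE-1 co-IPs under nrfl-1 RNAi, where the 26G class stood at about its input level. The 23H class is itself described as loaded by RDE-1, so this contrast is a description and no test of loading. The 155 sequences summed to 659.8 ± 76.5 RPM (SD, n = 3) in the wild-type RDE-1 co-IPs and 27.08 ± 2.31 in the inputs, and to 1.35 to 2.5 RPM in the mutant co-IPs and 1.24 to 1.95 in the mutant inputs. The wild-type co-IPs lay above all 9 other libraries. C36A4.14 gave 124.8 RPM of it from 24 sequences, F55C9.3 117.0 from 3 and Y17D7C.3 79.06 from 19. The F55C9.3 siRNA printed above was at 136.92, 108.38 and 62.64 RPM in the wild-type co-IPs and 2.26, 2.65 and 1.57 in the inputs, in the libraries where the 26G-RNAs of that gene were lower in the co-IP. The F39E9.7 siRNA was at 36.02, 22.01 and 15.61 RPM against 0.12, 0.23 and 0.06, and was listed at 0 in all 3 mutant co-IPs. Of the 34 genes with such siRNAs, 29 were among the 58 called higher with ERGO-1, 5 were not tested there and 0 were among those called lower or neither way.

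With tagged RDE-1 and RNAi against nrfl-1 together with oma-1, the libraries of co-IP and input overlapped. Sums were 27.53 and 327.7 RPM in the wild-type co-IPs and 324.6 and 125.7 in the inputs, and 32 of 32 members overlapped. Y17D7C.3 was at 8.29 and 63.66 RPM in the co-IPs and 55.28 and 22.62 in the inputs (-0.57 ± 0.51, limma adjusted p = 0.274), and F39E9.7 at 3.36 and 36.47 against 43.18 and 15.46 (-1.08 ± 0.53, adjusted p = 0.0525). These values depended on single libraries and on scaling. Without the first co-IP, which stood apart, the changes were 0.83 and 0.47. Without the second co-IP Y17D7C.3 was at -1.97 (adjusted p = 4.24e-06), and without the second input F39E9.7 was at -1.79 (0.000598) and Y17D7C.3 at -1.20 (0.0198). With equal totals both were called lower, F39E9.7 at -1.48 (6.06e-05) and Y17D7C.3 at -1.0 (0.00809), and with the replicate block F39E9.7 was (-1.08, 0.000959). Neither of these members was called in the wild type, where 95.1% of rows were called lower, nor in the mutant (92.5% lower), nor in the difference (3.29% called either way), and limma gave 0 of 2 at an unadjusted p under 0.05 in all 3. The inputs did separate: Y17D7C.3 was at 1.33 and 0.53 RPM and F39E9.7 at 1.73 and 0.61 in rde-4(syb6665), below both wild-type inputs (-4.27 ± 0.51 and -3.69 ± 0.53, adjusted p = 7.1e-08 and 2.77e-06, against 2.84% of rows called lower). Both members passed the filter through the wild-type libraries, so their lower level in the mutant inputs is a description. Without a filter the same changes had adjusted p-values of 0.154 and 0.303.

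In the L4440 and dcr-1 set, where all animals had tagged wild-type rde-4, the class was higher with RDE-1 than in the input. Sums under L4440 were 3434, 6268 and 5013 RPM in the co-IPs and 2037, 2937 and 2905 in the inputs. T05E12.10 was at 756.23, 1221.98 and 967.35 RPM against 276.34, 333.02 and 355.85, with all co-IPs above all inputs (1.59 ± 0.19, limma adjusted p = 1.24e-09). Of 37 tested members, 30 were called higher, against 6.6% of 2516 rows, from 0.49 to 1.60 (ZK402.3), and 7 were not called. The median of all rows was -3.65, and 2163 of 2216 tested piRNA rows were lower. The mir-35 family rose further than the members, with 8 of 8 called higher and a median of 2.18. Y17D7C.3, at 219.59, 426.24 and 386.19 against 176.86, 276.33 and 254.44 RPM, was called at 0.51 ± 0.21 (adjusted p = 0.0223), and that call was lost without the second co-IP (0.165), the third (0.0814) or the first input (0.186), without a filter (0.0753), and with equal totals, where the change was 0.19 (0.389).

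Under dcr-1 RNAi, siRNAs of the fed dcr-1 sequence rose by 8.54 on the log2 scale in the inputs, which checks the treatment label. Neither dcr-1 mRNA nor its protein was measured, so how far DCR-1 fell is unknown. The class did not fall: sums were 3713, 3661 and 3484 RPM in the inputs, 1.38 times those under L4440, and 5399, 6223 and 5673 RPM in the co-IPs. In the dcr-1 inputs, 3 of 37 members were called higher, against 2.78% of rows. They were T16A1.9 (0.77, adjusted p = 0.0282), Y17D7C.3 (0.73, 0.0456) and mir-8199 (0.73, 0.0448), the gene C40A11.10, and the median of all rows was 0.394. None of the 37 was called without the first or the third L4440 input or without any 1 of the 3 dcr-1 inputs, and 5 were called without the second L4440 input.

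With dcr-1 RNAi, 16 of 37 members were higher in the RDE-1 co-IP (6.24% of rows) and 1 was lower (90.9% of rows). The 26G-RNAs of mir-8199 were at 515.12, 542.96 and 517.71 RPM in the co-IPs and 147.26, 142.52 and 146.96 in the inputs, far apart (1.84 ± 0.21, limma adjusted p = 8.67e-10). The member called lower, C01A2.1, was at 38.77, 44.71 and 39.88 against 71.5, 62.25 and 57.34 RPM (-0.62 ± 0.26, adjusted p = 0.0275), a call lost without the first (0.0747) or the third (0.0565) co-IP or the first input (0.0909), with a pseudocount of 0.1 (0.0544) and without a filter (0.0881). The difference in enrichment between treatments was called for 0 of 37 members by limma, with 3 lower at an unadjusted p under 0.05, against 2.38% of all rows called. Without the first L4440 co-IP, 3 members were called lower.

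**Figure D4:**
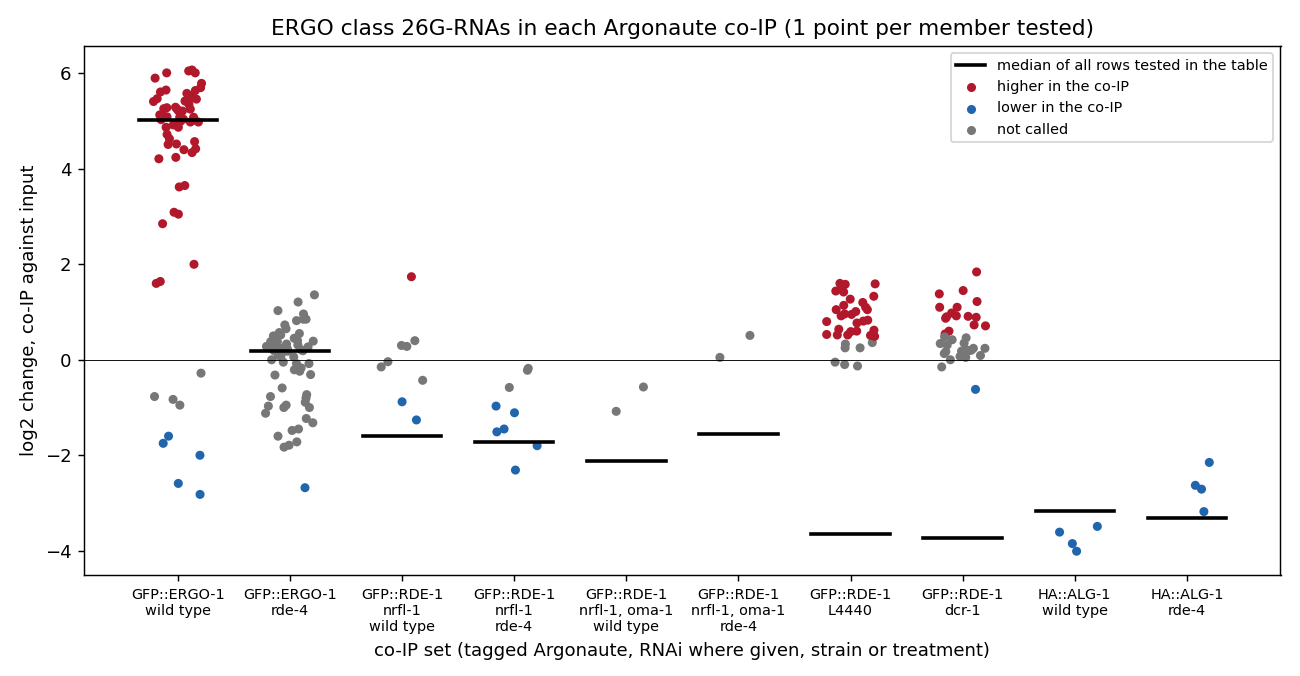
Log2 change from input to co-IP for each tested member in every co-IP set, 1 point per member, coloured by call, with a bar at the median of all rows tested in that table (for GFP::ERGO-1 these are the members themselves). The GFP::ERGO-1 wild type holds 58 points from 1.60 to 6.07, the GFP::RDE-1 members under nrfl-1 RNAi lie between -1.26 and 1.74 in the wild type and between -2.31 and -0.18 in rde-4(syb6665), and the HA::ALG-1 points lie between -4.01 and -2.15.

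HA::ALG-1 co-IPs were poor in the class. Sums were 55.5, 39.68 and 61.8 RPM in the wild-type co-IPs against 691.6, 638.1 and 698.1 in the inputs, 12.9 times as high in the inputs. All 45 members of at least 1 RPM in the inputs were lower in every co-IP library, at a median of 8.2% of input. T05E12.10 was at 8.61, 6.61 and 11.34 RPM against 111.18, 103.5 and 107.86 (-3.49 ± 0.25, limma adjusted p = 4.32e-12). Y17D7C.3 was at 8.16, 5.52 and 9.86 against 140.44, 129.8 and 144.48 RPM (-4.01 ± 0.27, adjusted p = 2.82e-12). Co-IPs and inputs were wide apart for both. All 4 tested members were called lower, against 85.7% of rows called lower and a median of -3.16 over all rows, so the members moved with their table.

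Without rde-4 the ALG-1 co-IPs held 7.4, 8.11 and 14.73 RPM of the class and the inputs 75.9, 93.01 and 84.16. The 4 tested members were again all lower in the co-IP (-3.18 to -2.15, against 87.8% of rows). The difference between strains was called by limma for 0 of 4, against 0.152% of rows, at 0.31 to 1.46, and 3 of the 4 had an unadjusted p under 0.05. That count depended on the setting: 3 were called higher with equal totals or without the third wild-type co-IP, and F39E9.7 and E01G4.7 without the second mutant co-IP and with the replicate block (0.0357 and 0.0438). Both were also called without a filter (0.028 and 0.0399). With a pseudocount of 0.1 the sign turned for E01G4.7 (-0.15) and T05E12.10 (-0.14), with a limma adjusted p of 0.992 for each. Between the inputs all 4 were lower in the mutant, against 2.28% of rows, again a description because they passed the filter through the wild-type inputs. Y17D7C.3 was at 15.89, 18.52 and 18.15 RPM there, below all wild-type inputs (-2.91 ± 0.27, adjusted p = 9.97e-08).

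The 22G-RNAs of the members' own genes, the secondary siRNAs made after 26G-RNAs act, were followed in the RppH-treated tables. Among the 58 genes whose 26G-RNAs were called higher with ERGO-1, 36 had 22G-RNAs tested in adults, of which 31 were lower in rde-4(syb6665), 3 were higher and the median was -2.38. A row that passed the 10 RPM mean only through N2 had to be lower in the mutant, so these counts are a description. In L4 larvae 35 were tested, 31 lower and 2 higher, with a median of -4.63. K02E2.6 lost most in larvae, from a mean of 370.6 RPM in N2 to 0.977 (-7.56 ± 0.08, limma adjusted p = 6.84e-15). The backgrounds are the shares of rows called lower given above, 6.17% in adults and 6.74% in larvae. The shares called higher were 28% in adults and 27.8% in larvae.

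The 22G-RNAs of T05E12.10 were at 45.25, 45.23 and 46.23 RPM in N2 adults and 7.22, 7.65 and 6.35 in the mutant (-2.53 ± 0.07, limma adjusted p = 2.42e-10). Those of F39E9.7 were at 88.62, 95.04 and 85.33 against 3.41, 2.46 and 2.93 RPM (-4.53 ± 0.09, adjusted p = 2.15e-11). Neither pair of groups overlapped. C36A4.14 kept far more, with means of 70.06 RPM in N2 and 44.65 in the mutant (-0.64 ± 0.04, adjusted p = 9.14e-07), although its 26G-RNAs had fallen by 3.99 on the log2 scale. The 3 genes with more 22G-RNAs in mutant adults were cgh-1 (0.25), mix-1 (0.24) and vab-10 (0.23). Their 26G-RNAs were nearly absent from N2 adults, at means of 0.0167, 0.0867 and 0 RPM.

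The loss was not limited to genes called higher with ERGO-1. Genes not tested there fell under the 10 RPM mean, which does not show that they lacked enrichment. Y9D1A.2, for example, averaged 18.15 RPM in the wild-type ERGO-1 co-IPs and 2.415 in the inputs. Of the 56 genes not tested in the ERGO-1 table, 19 had 22G-RNAs tested in adults, 14 lower and 1 higher in the mutant with a median of -1.41, and 7 in larvae, 3 lower and 2 higher. Y24F12A.4 is one, with 26G-RNAs at 4.2 and 3.86 RPM in the wild-type ERGO-1 co-IPs and 4.09 and 5.38 in the inputs, which overlapped, and 22G-RNAs that fell by 2.28 on the log2 scale in adults (SE 0.08, limma adjusted p = 3.94e-09). Of the 5 called lower, 1 had 22G-RNAs tested in adults and 2 in larvae, and all 3 results were called higher in the mutant, against 28% of rows in adults and 27.8% in larvae. They were Y55F3BR.2 in adults (0.30, limma adjusted p = 0.000905) and in larvae (0.37, adjusted p = 0.000623), and dhc-4 in larvae (0.41, adjusted p = 0.0103). Of the 4 called neither way, 3 had tested 22G-RNAs, with 0 called in adults and 1 called higher in larvae.

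**Figure D5:**
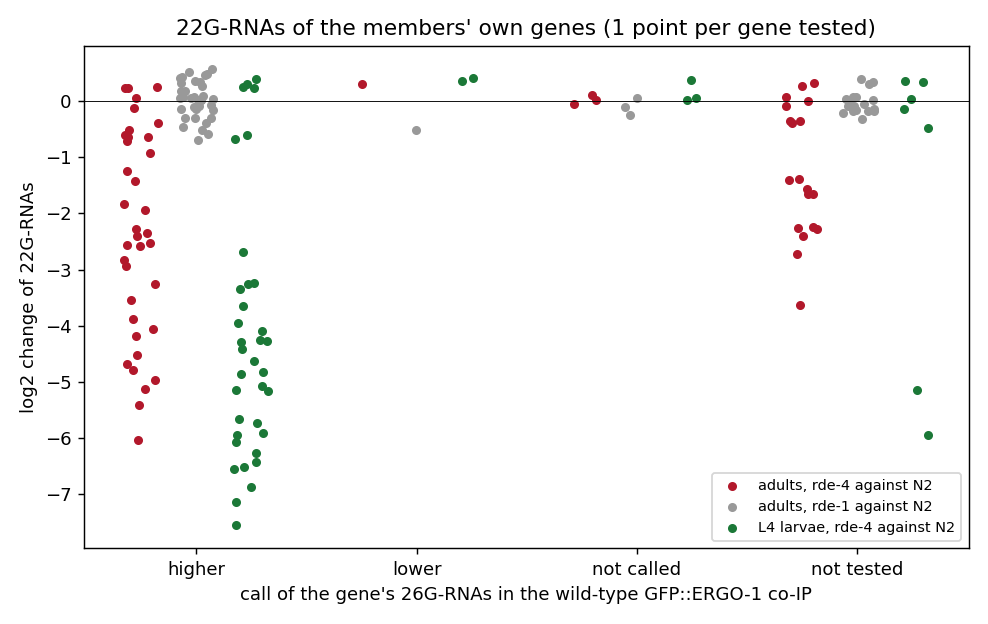
Log2 change of the 22G-RNAs of the members' own genes, 1 point per gene tested, grouped by how the gene's 26G-RNAs were called in the wild-type ERGO-1 co-IP. Among genes called higher, 31 of 36 in rde-4 adults and 31 of 35 in rde-4 larvae were called lower, while the rde-1 adults centre on a median of 0.05.

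In rde-1(ne300) adults, 5 of the 36 genes had more 22G-RNAs and 8 fewer, with a median of 0.05, against 7.52% of rows called higher and 7.96% lower. ZK380.5 rose by 0.52 ± 0.11 (limma adjusted p = 0.00942) and ZK402.3 by 0.47 ± 0.04 (adjusted p = 2.94e-05). Those of Y17D7C.3 fell furthest, at 396.52, 421.81 and 341.49 RPM in N2 and 240.23, 227.2 and 249.01 in rde-1 (-0.69 ± 0.08, adjusted p = 0.000179), followed by Y51A2A.16 (-0.59) and T25G12.8 (-0.51). The 22G-RNAs of ZK380.5 and ZK402.3 averaged 28.12 and 69.34 RPM in N2 and 40.87 and 96.52 in rde-1, and 0.777 and 6.37 in rde-4. The rde-1 and rde-4 comparisons share the N2 adult libraries.

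The genes that make, load or act with 26G-RNAs were themselves measured only as small RNA targets. Of 16 such genes, 12 had a row, and in adults 4 of 8 tested had more 22G-RNAs in rde-4(syb6665) and 0 fewer (28% of rows were called higher): rrf-3 (0.16), dcr-1 (0.19), pir-1 (0.28) and the mutator gene mut-16 (0.22). In larvae 3 of 6 were higher (27.8% of rows) and 0 lower. They were rrf-3 (0.28), mut-16 (0.24) and alg-4 (0.46). These are levels of small RNAs against these genes, not of their mRNAs.

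In position and kind, 119 of the 123 members matched the Ensembl 115 annotation of WBcel235, of which 86 were protein coding and 29 pseudogenes. Of the 55 matched genes called higher with ERGO-1, 30 were protein coding and 21 pseudogenes, while all 9 called lower or neither way were protein coding. The 55 lay on chromosomes V (12), X (12), I (9), IV (9), II (8) and III (5). Within 10 kb of another member lay 45 nuclear members, 27 of them called higher and 18 not tested, in 38 pairs such as F39E9.7 with F39E9.10 and E01G4.7 with E01G4.5. The rows of Y71A12B.2 and Y71A12B.3 were identical in all 7 tables, so their reads could not be assigned to 1 gene.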

How the data were processed

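Small RNA libraries were analysed as RPM, the unit in which the authors deposited every table used; the counts behind them were not used here. Of the piRNA values up to 1 RPM, 98.7 to 99.9% per library lay within 0.0055 RPM of a multiple of 1 read, which gave the depths, but higher values were not recovered as whole reads and no count test was run. Per the series design text, the authors classified and counted reads with tinyRNA; its version and settings, the annotation and the genome build are not given in the sources used here. The planned test assumed counts, and because the deposited unit is RPM the test was limma (3.58.1, under R 4.3.3), applied to log2(RPM + 1), with all groups of a table in 1 fit, trended eBayes, rows averaging 10 RPM or more, and Benjamini-Hochberg adjustment over the whole table at 0.05. Of 79 labelled libraries, 67 had columns used, in 7 tables. A further table, of GFP::ALG-3, held none of the members and was not used. The GFP::ERGO-1 table held 2 of 3 labelled replicates per group and the members only. Tables were never tested against each other.

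Members, lists and tests were chosen with earlier results of these data known. Members named are the 12 with the highest mean in the GFP::ERGO-1 table, those tested in any other table, the largest and smallest changes, and any called against the majority; all other members named were chosen after their values were seen. Among comparisons with 3 replicate numbers, every number's deviations correlated above 0.1 only for wild-type GFP::RDE-1 co-IPs and inputs under nrfl-1 RNAi (0.493, 0.289 and 0.285). With 2 numbers, which give 1 value, the highest were 0.297 (GFP::RDE-1 inputs under both RNAi targets) and 0.293 (GFP::ERGO-1 inputs). No label states a shared batch. The limma step was tested on simulated data. Alternatives were a pseudocount of 0.1, no filter, equal totals, the replicate block and each library left out. Coordinates were matched by gene identifier to Ensembl release 115 of WBcel235. Tables were handled with Python 3.11.15 and pandas 2.3.3, and figures were drawn with matplotlib 3.10.9.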

Additional observations from a re-analysis of the deposited data

Results flagged for a closer look

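Each result here was set apart by a test of the difference itself between strains. In the GFP::ERGO-1 table, 58 members had a lower co-IP to input change in rde-4(syb6665), and 1, ncx-7, a higher one, with a difference of 2.37 on the log2 scale. That gene was not called higher in the mutant co-IP itself, and without the second mutant co-IP the difference had an adjusted p of 0.107. In the GFP::RDE-1 table under nrfl-1 RNAi, 4 of the 9 tested members had a lower enrichment in the mutant. They were T05E12.10 with a difference of -2.10, T16A1.9 with -1.96, K02E2.6 with -1.51 and Y17D7C.3 with -1.43. Of these, T16A1.9 alone kept its call without a filter and with equal totals. Its mutant levels, given above, were so low that they left little room to show a fall from input to co-IP.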

How the results depend on the processing

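Counts are of members called in either direction, and the cause of each change was not tested. The share of all rows called under each setting is not given. The counts therefore show how far calls depend on the setting and are no result about the members. Without a filter, 48 members were called in L4 larvae, 53 in rde-4 adults, 8 in the mutant ERGO-1 co-IP, 26, 12 and 54 in the wild-type co-IP, mutant co-IP and inputs of tagged RDE-1 with nrfl-1 RNAi, and 3, 1 and 1 in those under nrfl-1 and oma-1 RNAi. For HA::ALG-1 they were 57, 22 and 56, with 43 for the difference, and 1 in the dcr-1 inputs. With equal totals, the difference under nrfl-1 RNAi gave 1, the wild-type co-IP under nrfl-1 and oma-1 RNAi 3 and its difference 1, the HA::ALG-1 difference 3 and the dcr-1 inputs 1; a pseudocount of 0.1 gave 0 in the dcr-1 inputs. Equal totals were not run for GFP::ERGO-1, whose table holds 1 class. The replicate block gave 1 for the wild-type co-IP under nrfl-1 and oma-1 RNAi and 2 for the HA::ALG-1 difference, and moved no other count by over 1.5 times. Crossing the numbers of the mutant GFP::ERGO-1 pairs, chosen after seeing the data, left counts of 1 and 59. Leaving out 1 library at a time gave 1 to 3 in L4 larvae and, for GFP::ERGO-1, 57 to 62 in the wild-type co-IP, 0 to 10 in the mutant, 52 to 61 for the difference, 19 to 36 in the inputs and 51 to 62 between co-IPs. It gave 1 to 4 for the difference under nrfl-1 RNAi and, under nrfl-1 and oma-1 RNAi, 0 to 2 in the wild-type co-IP, 0 to 1 for the difference and 1 to 3 in the inputs. It gave 0 to 3 for the HA::ALG-1 difference and, in the dcr-1 set, 0 to 3 for the difference, 0 to 5 in the inputs and 21 to 33 in the L4440 co-IP. Signs turned for T05E12.10 in the mutant ERGO-1 co-IP (-0.31 to 0.22 without a library), for F39E9.7 (-1.79 to 0.47) and Y17D7C.3 (-1.97 to 0.83) in the wild-type co-IP under nrfl-1 and oma-1 RNAi, and, with a pseudocount of 0.1, for E01G4.7 (-0.15) and T05E12.10 (-0.14) in the HA::ALG-1 difference. Depth limits mutant levels, which often lie near the 3-read level.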
